A study of Mus musculus with 6 samples.

Results

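Chondrocyte-like cells of the healing rotator cuff enthesis were selected on their own transcripts, and 815 of 85339 quality-filtered barcodes (0.955%) met the rule. A barcode needed at least 1000 UMIs (unique molecular identifiers, each one counted RNA molecule), at least 200 genes and at most 10% mitochondrial UMIs. It also needed at least 5 UMIs of Col2a1, the main collagen of cartilage, and at least 2 UMIs together of Acan, Sox9 and Col9a1. Barcodes with any UMI of the leukocyte gene Ptprc or the endothelial gene Cdh5 were left out, as were those with 1% or more S100a8 and S100a9 UMIs, and those with 2 or more UMIs of the proliferation genes Mki67 and Top2a. The cells were thus chosen by the measured values of these genes, so the levels of Col2a1, Acan, Sox9 and Col9a1 below are a description. No doublet caller was run, and the limits on genes of other cell types were the guard against doublets.

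The cells came from 6 droplet libraries of 3′ RNA: 3 from wild-type mice and 3 from Nlrp3-/- mice, which lack the inflammasome sensor NLRP3. The surgical model used mice of 12 to 14 weeks whose supraspinatus tendon was cut at its insertion and sutured back. Both groups had this injury and repair, and the tissue was collected 7 days post injury (dpi). Entheses were pooled before dissociation, so the replicate here is the library, and p-values measure the spread between libraries, because the labels do not tie them to separate animals. The titles of Nlrp3-/- replicates 2 and 3 name an Nlrp3 knockout while their genotype fields name Nlrp4 and Nlrp5, and the titles were followed.

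Cartilage at a tendon insertion is of a mixed kind. Hyaline cartilage is built from type II, IX and XI collagens, aggrecan and small cartilage proteins, whereas tendon is built from type I and III collagens and small leucine-rich proteoglycans, and fibrocartilage holds both. Towards bone, chondrocytes enlarge, make type X collagen and Indian hedgehog, and mineralize their matrix. The joint surface carries a different chondrocyte, which makes the lubricant lubricin, encoded by Prg4.

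The libraries held 97042713 to 134901999 UMIs and 9903 to 22048 quality-filtered barcodes each. In wild-type replicates 1, 2 and 3 there were 77, 16 and 69 chondrocyte-like cells, and in Nlrp3-/- replicates 1, 2 and 3 there were 121, 497 and 35. Nlrp3-/- replicate 2 alone held 61.0% of them. Their median depth was 21811, 6898 and 18518 UMIs in the wild-type libraries and 1857, 21395 and 12196 UMIs in the Nlrp3-/- libraries. Nlrp3-/- replicate 1 was the shallow library, with 66.1% of its chondrocyte-like cells under 3000 UMIs, while the other libraries had 2 to 12 such cells each. No barcode was a chondrocyte-like cell in more than 1 library, and the barcodes of 14 of these cells also named a cell in another library.

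The label held against the markers that the rule did not require. Comp, a pentameric matrix protein of cartilage and tendon, was detected in 88.5% of the cells after each was thinned to 1000 UMIs, and in 82.6% to 97.4% by library. In neutrophils, thinned alike and expected to lack the gene, it was found in 0.7% to 4.2%. Their median depth before thinning was 1726.5 to 4061 UMIs by library. Hapln1, the link protein that ties aggrecan to hyaluronan, was detected in 78.3%, and Snorc, a small proteoglycan of chondrocytes, in 66.1%. The matching neutrophil ranges were 0% to 3.4% and 0% to 2.5%. Against the other mesenchymal cells of the same libraries (14252 cells with at least 2 UMIs of Col5a1, Col5a2 and Col6a1 and under 5 of Col2a1), the CPM of Snorc was 244- to 3458-fold higher by library, with 1 CPM added to both. CPM are a gene's UMIs summed over the cells of a library per 1000000 UMIs of those cells. Each UMI stands for 1 molecule whatever the length of the transcript. Hapln1 was 189- to 490-fold higher and Cnmd, the anti-angiogenic chondromodulin, 130- to 489-fold higher. Genes outside the lists that led in the same way, chosen after their values were seen, were Susd5 at 76.2-fold or more in each library, Smpd3, a sphingomyelinase of the skeleton, at 68.4-fold or more, and the mechanosensitive channel Trpv4 at 33.3-fold or more. These ratios describe cells that were selected for cartilage genes and carry no test.

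Genes of other cell types were low for some types and not for others. The 4 granule genes Retnlg, Camp, Ngp and Ltf, left out of the rule, lay at 0.670% to 3.01% of their level in the ambient RNA of each library, the pooled barcodes of at most 100 UMIs. The 5 endothelial markers together gave 3.91 to 38.4 CPM and the 5 muscle markers 0 to 17.9 CPM, with Myod1 at 0 in each library. The 6 macrophage markers differed more. They summed to 146, 230 and 110 CPM in wild-type replicates 1 to 3 and to 1115, 180 and 592 CPM in Nlrp3-/- replicates 1 to 3. Lyz2, the lysozyme of macrophages and neutrophils, was found in 62 of the 121 cells of Nlrp3-/- replicate 1 at 1000 UMIs (51.2%) and in 5.80% to 18.8% of the cells elsewhere. That library was also the shallow one, where the limit of 0 Ptprc UMIs rests on the fewest UMIs per cell, and the part of these transcripts in its other values was not tested. The 6 osteoblast markers summed to 3645 to 15690 CPM, nearly all of it Ibsp, against 19.6 to 198 CPM in the other mesenchymal cells. The 5 erythroid markers reached 328 CPM in Nlrp3-/- replicate 2 and 4.52 to 66.3 CPM elsewhere.

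Cells just inside the Col2a1 threshold were few. At exactly 5 UMIs there were 33 cells, and 73 barcodes that met each other limit fell just outside with 4 UMIs. Under 10 UMIs lay 93 of the chondrocyte-like cells, and 546 had 100 or more. As a share of each cell's UMIs, Col2a1 had a median of 3.10%, 0.752% and 2.38% in wild-type replicates 1 to 3 and of 1.77%, 2.85% and 1.43% in Nlrp3-/- replicates 1 to 3. The highest cell reached 15.4%. Most cells in 5 of the libraries thus spent over 1 in 100 of their RNA molecules on this collagen, while in wild-type replicate 2 only 7 of 16 cells did.

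A minority stood near the level of free RNA. Col2a1 made up 0.511% of ambient UMIs in Nlrp3-/- replicate 2 and 0.00137% to 0.0997% in the other libraries. Of the chondrocyte-like cells, 85 in Nlrp3-/- replicate 2, 10 in wild-type replicate 3 and 4 in wild-type replicate 1 had a Col2a1 share at or under that of their ambient RNA, and none had in the other 3 libraries. In total 591 cells had a Col2a1 share of at least 1% and 224 a lower one.

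The genes of the rule were at high levels, as the selection required. Col2a1 was at 32885, 10084 and 26249 CPM in wild-type replicates 1 to 3 and at 22754, 31076 and 19451 CPM in Nlrp3-/- replicates 1 to 3. Acan, the aggrecan that holds water in cartilage, was at 5006, 2370 and 4022 CPM and at 3552, 5406 and 4197 CPM. Wild-type replicate 2 was lowest for both. Sox9, the transcription factor that starts cartilage genes, ran the other way, at 1190 CPM in wild-type replicate 2 and at 572 to 823 CPM elsewhere.

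Its partners were present at lower levels. Sox6, which acts with Sox9 on cartilage enhancers, was at 48.0 to 100.5 CPM, with 9.94-fold or more over the other mesenchymal cells in each library. Foxa2 and Foxa3, factors of hypertrophic chondrocytes, were at 19.2 to 36.5 and 33.9 to 77.9 CPM and 20.2-fold or more above those cells. At such low levels these ratios depend on the 1 CPM added to both sides. The 20.2, of Foxa2, was set by it, since the comparison cells had no Foxa2 UMI there. Sox5 was only 1.48- to 7.64-fold above them, and Nkx3-2 gave no UMI in 3 of the 6 libraries.

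**Figure D1:**
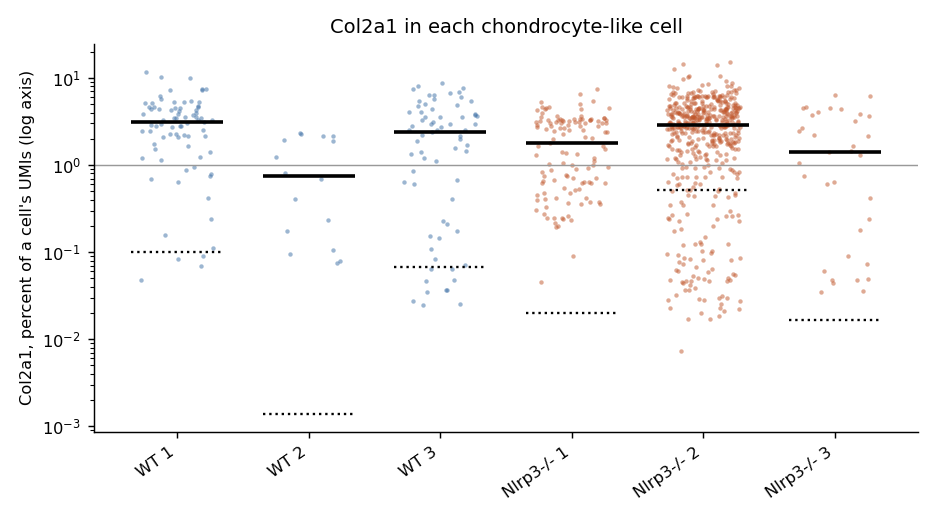
Each point is 1 chondrocyte-like cell, with Col2a1 as a percent of its UMIs on a log axis, by library. Thick bars are medians, dotted bars the ambient share of the library, and the grey line is 1%. Nlrp3-/- replicate 2 shows both the largest cloud above 1% and the highest ambient share, and cells in 3 libraries reach below the dotted bar.

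The first comparison asked whether loss of Nlrp3 changed how many chondrocyte-like cells the healing enthesis yielded. They made up 0.609%, 0.103% and 0.697% of the cells in wild-type replicates 1 to 3. In Nlrp3-/- replicates 1 to 3 they made up 0.549%, 4.20% and 0.261%. The groups overlapped: Nlrp3-/- replicate 2 lay far above the rest, and the other two Nlrp3-/- libraries lay within the wild-type range. The means were 0.470 ± 0.321% and 1.67 ± 2.20% (SD, n = 3 each), and an exact two-sided permutation test over libraries gave p = 0.6, where 0.1 is the smallest value that 3 libraries a group allow. Without Nlrp3-/- replicate 2 the Nlrp3-/- mean was 0.405%, under the wild-type mean.

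The same held within mesenchymal cells. Chondrocyte-like cells were 6.97%, 0.711% and 5.19% of the mesenchymal cells in the wild-type libraries and 2.19%, 26.2% and 1.18% in the Nlrp3-/- libraries (exact permutation p = 0.8). In Nlrp3-/- replicate 2, therefore, about 1 in 4 mesenchymal cells met the cartilage rule. The Wilson 95% interval of its share of all cells ran from 3.86% to 4.58%, and that of wild-type replicate 2 from 0.0635% to 0.167%. The libraries thus differed among themselves by far more than counting error.

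**Figure D2:**
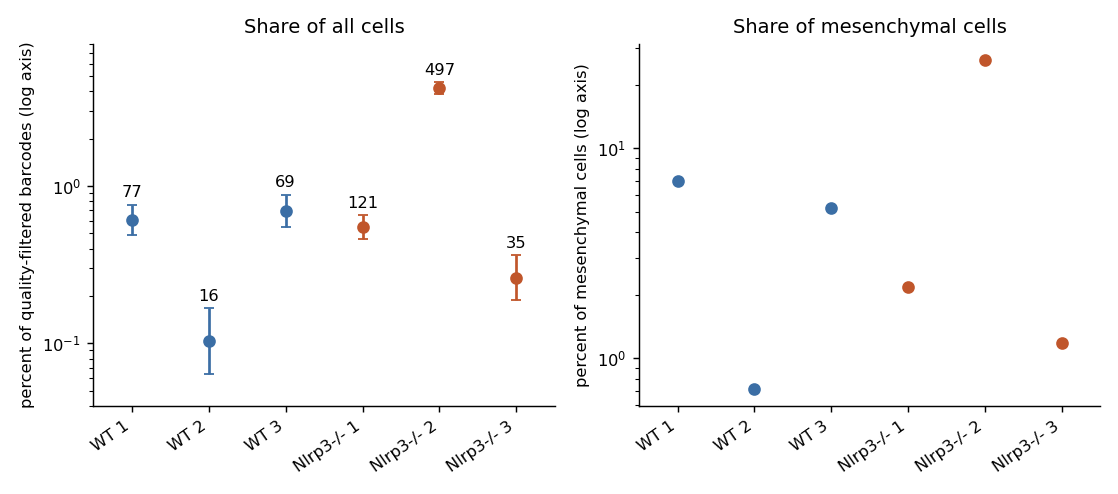
The left panel gives chondrocyte-like cells as a percent of all quality-filtered barcodes with Wilson 95% intervals and the number of cells above each point. The right panel gives them as a percent of mesenchymal cells. Both axes are logarithmic, blue is wild type and orange Nlrp3-/-. Nlrp3-/- replicate 2 with 497 cells stands above the other 5 libraries in both panels.

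The rule removed dividing cells, and these were counted. Of the barcodes that met each other limit, 7 of 84, 0 of 16 and 11 of 80 had 2 or more Mki67 and Top2a UMIs in the wild-type libraries, which is 8.33%, 0% and 13.8%. In the Nlrp3-/- libraries these were 5 of 126, 95 of 592 and 4 of 39, or 3.97%, 16.0% and 10.3%. The Wilson 95% interval was 13.3% to 19.2% in Nlrp3-/- replicate 2 and 0% to 19.4% in wild-type replicate 2. Cells with both cartilage and proliferation transcripts were found in 5 of 6 libraries, and the groups overlapped (exact permutation p = 0.6). The limit of 2 UMIs was not set to equal depth, and the lowest share above 0 was in the shallow Nlrp3-/- replicate 1, so the libraries are not ranked by it. The limit on Ptprc took out more, from 15.6% to 35% of the barcodes with cartilage transcripts.

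The matrix transcripts were both fibrous and cartilaginous. A list of 14 fibrous matrix genes summed to 67338, 43012 and 102234 CPM in the wild-type libraries and to 84619, 81924 and 142118 CPM in the Nlrp3-/- libraries. A list of 16 hyaline cartilage genes, none of them in the rule, summed to 29556, 25320 and 23729 CPM and to 20102, 30110 and 18034 CPM. The hyaline sum thus varied less between libraries than the fibrous sum, but the genes behind it differed. In wild-type replicate 2, Chad was at 5507 CPM against 430 to 1166 CPM elsewhere. Col9a2 was at 355 CPM there against 1133 to 2105 CPM. In the other mesenchymal cells the fibrous list lay at 61943 to 124276 CPM, within the range of the chondrocyte-like cells, and the hyaline list at 418 to 1241 CPM, far under it. Fibrous transcripts were also common in the background. At 1000 UMIs, Col1a1 was found in 9.2% to 54.1% of neutrophils by library and in 25% to 97.0% of chondrocyte-like cells. For Col3a1 these ranges were 13.2% to 49.4% and 50% to 90.9%. In wild-type replicate 2, Col1a1 was in 4 of 16 chondrocyte-like cells (25%) and in 18.3% of neutrophils.

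Fibrous genes took 69.5%, 62.9% and 81.2% of the fibrous and hyaline UMIs in wild-type replicates 1 to 3. They took 80.8%, 73.1% and 88.7% in Nlrp3-/- replicates 1 to 3. The ranges overlapped, with means of 71.2 ± 9.23% and 80.9 ± 7.81% (SD, n = 3 each), a difference of 9.69 percentage points and an exact permutation p of 0.3. In cells with at least 1% Col2a1 the fibrous share was 67.5%, 61.1% and 75.4% against 77.6%, 67.8% and 75.8% (exact permutation p = 0.2). In tenocyte-lineage cells, chosen by Tnmd and by Fmod or Thbs4, the share was 98.3% to 98.9%. In ambient RNA it was 83.9% to 99.2%, and the part of ambient RNA in the shares of the cells was not tested. These shares depend on a hyaline list that holds no gene of the rule. With Col2a1, Acan and Col9a1 counted as hyaline, a setting added after the data had been seen, the fibrous share of all chondrocyte-like cells was 49.2%, 52.9% and 64.5% in the wild-type libraries and 63.9%, 54.3% and 76.7% in the Nlrp3-/- libraries (exact permutation p = 0.3). In cells with at least 1% Col2a1 it was then 46.6%, 45.6% and 55.5% against 58.2%, 47.7% and 55.6%. By these lists, fibrous and hyaline transcripts were thus near balance in those cells, with hyaline ahead in 3 of the 6 libraries. Both the rule and the 1% limit selected cells on Col2a1, so the selection itself raised the hyaline side. This balance is therefore a description. The balance depends on which genes are listed. Sparc, counted as fibrous, was the most abundant gene of the chondrocyte-like cells, at a mean of 28365 CPM over libraries. It was 1.90- to 3.24-fold above the other mesenchymal cells, and the share without it was not computed.

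Single cells spread widely around those sums. In Nlrp3-/- replicate 2 the fibrous share had a median of 71.7% and quartiles of 57.5% and 88.8%. With the rule genes left out, 68.8% to 94.2% of the cells of a library had more fibrous than hyaline matrix UMIs, and with Col2a1, Acan and Col9a1 counted as hyaline 45.5% to 85.1% had. The 94.2% and the 85.1% were both in the shallow Nlrp3-/- replicate 1. There Col1a1 was found in 54.1% of neutrophils at 1000 UMIs, and ambient RNA was 98.2% fibrous. The fibrous share fell as Col2a1 rose: Spearman's rho across the cells of a library was -0.45, -0.20 and -0.68 in the wild-type libraries (77, 16 and 69 cells) and -0.50, -0.60 and -0.74 in the Nlrp3-/- libraries (121, 497 and 35 cells). Cells of 1 library share their ambient RNA and are no replicates, so these values are descriptions.

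**Figure D3:**
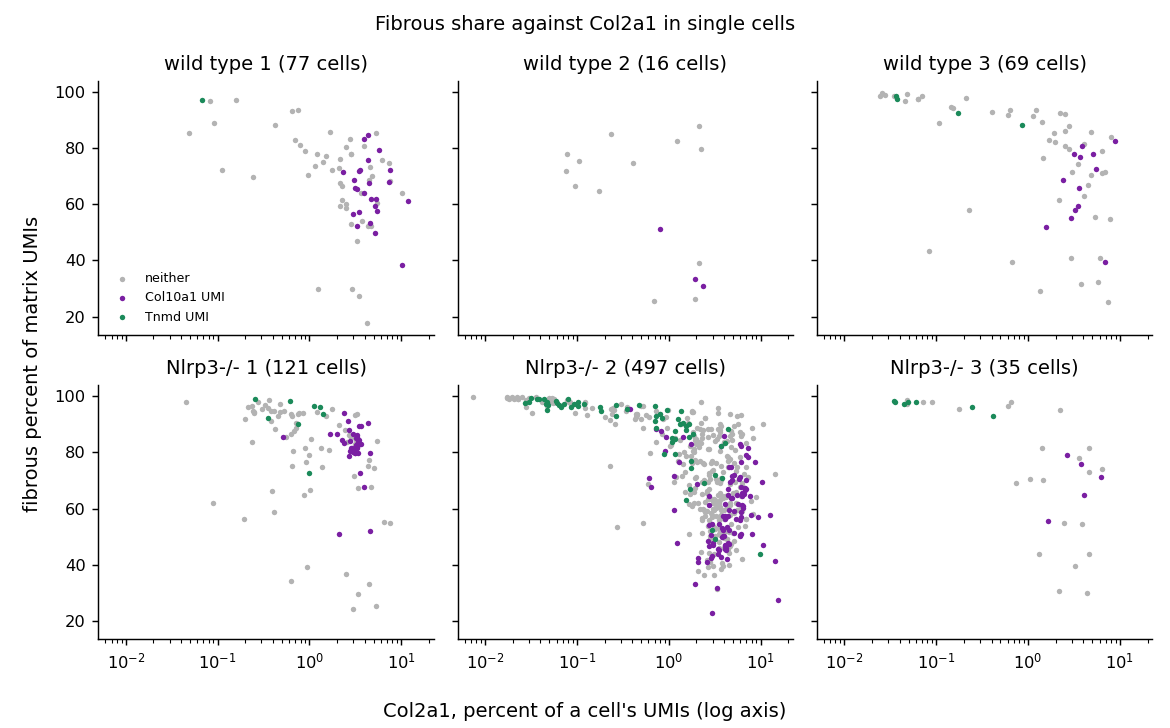
Each point is 1 chondrocyte-like cell in 1 of 6 panels, 1 per library, with Col2a1 as a percent of UMIs on the log x axis and the fibrous percent of fibrous plus hyaline matrix UMIs, rule genes left out, on the y axis. Purple cells had a Col10a1 UMI and green cells a Tnmd UMI at 1000 UMIs per cell. Cells low in Col2a1 sit near the top in most libraries, and cells with 1% or more spread from 17.6% to 97.9%.

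Among hyaline genes, Col11a1, a fibril partner of type II collagen, was at 6864, 2159 and 7283 CPM in the wild-type libraries and at 4575, 8193 and 4700 CPM in the Nlrp3-/- libraries. Hapln1 had its lowest and highest levels in the same libraries, from 1218 CPM in wild-type replicate 2 to 4632 CPM in Nlrp3-/- replicate 2. Matn3, a filament protein of growth cartilage, was at 957, 106 and 957 CPM and at 719, 1973 and 518 CPM. Ucma, a secreted protein of young chondrocytes, was at 916, 278 and 384 CPM and at 308, 1763 and 224 CPM. Both peaked in Nlrp3-/- replicate 2. They also met in the same cells: after thinning, Matn3 was detected in 80.6% of the 320 cells with Ucma and in 42.0% of the 495 cells without it. Nlrp3-/- replicate 2 held 255 of the 320, with 84.7% against 50%. In the other libraries the shares were 33.3% to 85.7% with Ucma and 15.4% to 43.4% without it. Matn1, the matrilin of mature hyaline cartilage, was at 9.04 to 36.5 CPM, and Epyc was at 5.26 to 67.8 CPM.

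Among fibrous genes, Col1a1 was at 10864, 1075 and 30342 CPM in the wild-type libraries and at 27471, 19098 and 42788 CPM in the Nlrp3-/- libraries. Wild-type replicate 2 lay far under the other 5 libraries. Col3a1, the collagen of early repair tissue, was at 3968, 720 and 10272 CPM and at 6082, 8823 and 11916 CPM. Relative to the other mesenchymal cells, Col1a1 had a median ratio over libraries of 0.852, with a range from 0.0798 in wild-type replicate 2 to 1.48, and Col3a1 had a median ratio of 0.294. Postn and Aspn, matrix genes of repair fibroblasts, had median ratios of 0.248 and 0.219. Fmod, the fibromodulin of tendon and fibrocartilage, was at 1014 to 1656 CPM with a median ratio of 3.78. Of the 14 fibrous genes, 7 were below the other mesenchymal cells in each library, Col3a1 among them, and 2, Fmod and Sparc, were above them in each. The share of all genes above or below those cells in each library was not computed. Such counts, here and for the lists below, therefore only describe the listed genes.

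Tendon regulators were at modest levels. Scx, the tendon transcription factor, was at 24.2, 19.2 and 88.7 CPM in the wild-type libraries and at 72.1, 56.4 and 140 CPM in the Nlrp3-/- libraries. Tnmd, the tendon relative of chondromodulin, was at 14.7, 0 and 95.9 CPM and at 23.4, 178 and 497 CPM. After thinning it was found in 83 cells (10.2%), from 0 of 16 in wild-type replicate 2 to 7 of 35 in Nlrp3-/- replicate 3. Scx was found after thinning in 0% to 5.84% of the cells of a library, against 0.2% to 2.3% of neutrophils. In Nlrp3-/- replicate 1 these shares were 2.48% and 2.3%. The level of Scx was 0.212 to 0.630 of that in the other mesenchymal cells. Without thinning Tnmd was found in 0% to 43.3% of the cells of a library and Scx in 8.26% to 44.5%. The 83 cells had a median Col2a1 share of 0.619% and a median fibrous share of 94.9%, against 2.85% and 73.0% in cells without Tnmd. Nlrp3-/- replicate 2 held 63 of them, of which 28 were at or under its ambient Col2a1 share, with medians of 0.731% Col2a1 and 92.9% fibrous. The 20 from other libraries had medians of 0.250% and 96.8%. In neutrophils Tnmd was found in 0.1% to 4.3%, the top of that range being in Nlrp3-/- replicate 1, where the chondrocyte-like cells had 6.61%.

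A part of the cells carried the hypertrophic programme. Col10a1, the collagen of hypertrophic cartilage, was at 2901, 432 and 3445 CPM in the wild-type libraries and at 4601, 2351 and 5096 CPM in the Nlrp3-/- libraries. At 1000 UMIs per cell it was detected in 195 of 815 cells (23.9%), from 14.3% to 32.5% by library, and in 0% to 2.2% of neutrophils. Without thinning it was found in 17.1% to 43.1%. Each library therefore held Col10a1 cells, including 3 of the 16 cells of wild-type replicate 2.

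Ihh, the hedgehog ligand of prehypertrophic chondrocytes, was at 364, 9.59 and 246 CPM in the wild-type libraries and at 355, 407 and 355 CPM in the Nlrp3-/- libraries. It went with Col10a1: of the 195 cells with Col10a1, 47.2% had an Ihh UMI at equal depth, and of the 620 without it 5.81% had one. Across the cells of the 4 libraries with at least 50 of them, Spearman's rho of the shares of Col10a1 and Ihh was 0.63 to 0.70. Tnmd was found in 1 of the 195 Col10a1 cells and in 13.2% of the others. Col10a1 and Tnmd thus marked nearly separate cells at this depth, and the Col10a1 cells had the higher median Col2a1 share, 3.86% against 2.05%, and a median fibrous share of 65.4% against 80.2%. The fibrous medians were 58.4% against 78.3% in Nlrp3-/- replicate 2 and 77.8% against 81.5% in the other libraries together, a smaller gap.

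Of the 16 genes of hypertrophy and mineralization, 11 were above the other mesenchymal cells in each library, without a share over all genes to set beside this. Ibsp, bone sialoprotein, was at 10279, 6812 and 5732 CPM in the wild-type libraries and at 13860, 3525 and 15295 CPM in the Nlrp3-/- libraries. It was detected in 79.0% of the Col10a1 cells and in 29.8% of the rest, so it was more frequent with Col10a1 and also found without it. Among cells without Col10a1 the share was 20.2% in Nlrp3-/- replicate 2, which holds most of them, and 30% to 62.2% in the other libraries. Alpl, the phosphatase that frees phosphate for mineral, was at 374 to 1008 CPM, and the channel gene Panx3 at 38.4 to 481 CPM. Sp7, an osteogenic transcription factor, was at 38.4 to 108 CPM. Genes of the mature osteoblast were low, with Bglap, osteocalcin, at 1.82 to 210 CPM and Dmp1 at 0 in 3 of the 6 libraries. Mmp13, the collagenase of late hypertrophy, was at 16.3 to 240 CPM and was detected in 5.77% of the cells. Of the 16 genes in this list, Phospho1 was the lowest at 0 to 5.85 CPM.

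**Figure D4:**
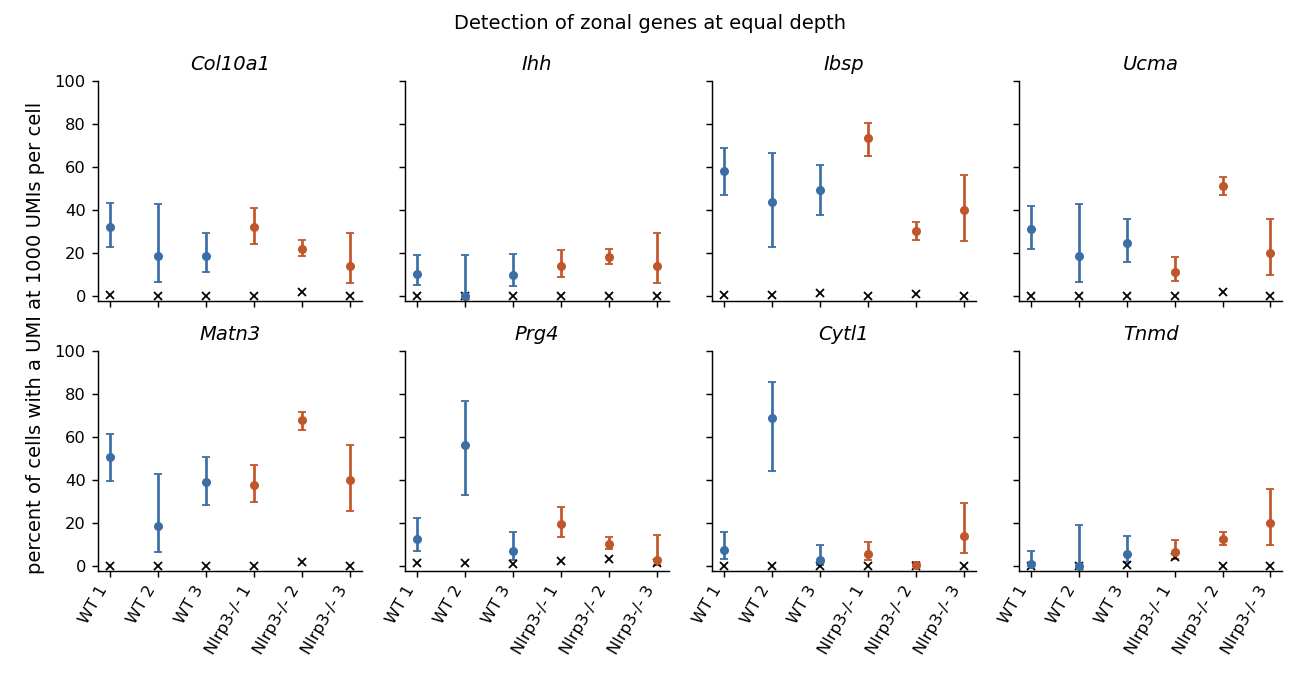
Each panel gives 1 gene as the percent of chondrocyte-like cells with at least 1 UMI after thinning to 1000 UMIs, with Wilson 95% intervals, for the 6 libraries (blue wild type, orange Nlrp3-/-). Crosses are neutrophils of the same library. Prg4 and Cytl1 are highest in wild-type replicate 2, Ucma and Matn3 in Nlrp3-/- replicate 2, and Ibsp in Nlrp3-/- replicate 1.

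Of the 20 growth plate signalling genes, 9 were above the other mesenchymal cells in each library and 2 below them in each. Pth1r, the receptor that holds back hypertrophy, was at 1735, 211 and 866 CPM in the wild-type libraries and at 694, 1018 and 807 CPM in the Nlrp3-/- libraries, while its ligand gene Pthlh lay at 0 to 17.5 CPM. Ptch1, the hedgehog receptor, was at 67.2 to 245 CPM. Fgfr3, which slows chondrocyte growth, was at 125 to 442 CPM and 57.4-fold or more above the other mesenchymal cells in each library. The Wnt antagonist Frzb was 52.3-fold or more above them. Of the 10 genes of glycosaminoglycan synthesis, 6 were above those cells in each library and 2, Csgalnact1 and the hyaluronan synthase gene Has2, below them in each. Papss2, which makes the sulfate donor, was 9.77-fold or more above, and the sulfotransferase gene Chst3 ranged from 0.467 to 53.4. These are again ratios for selected cells.

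Of the 10 genes of matrix degradation, which include 3 Timp inhibitors, 7 were below the other mesenchymal cells in each library and 1 was above them in each. The list summed to 2091 to 3473 CPM, against 4157 to 7610 CPM in those cells. Mmp14, a membrane-bound collagenase, was at 70.5 to 536 CPM with a median ratio of 0.249, and the aggrecanase gene Adamts5 at 13.2 to 95.9 CPM with 0.251. Timp3, the inhibitor of aggrecanases, was the gene above in each library, at 217 to 1161 CPM with a median ratio of 3.49. Mmp3 and Mmp9, a stromelysin and a gelatinase, lay on both sides, with ratios from 0.0211 to 6.52 and from 0.114 to 1.15. The 10 genes of collagen folding and secretion summed to 3847 to 9107 CPM, the lowest sum in wild-type replicate 2 and the highest in Nlrp3-/- replicate 2. These libraries were also the lowest and the highest in Col11a1 and Hapln1.

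Transcripts of inflammation varied by gene. Il1r1, the receptor for IL-1, was at 0 to 39.0 CPM, at a median of 0.126 of the level in other mesenchymal cells. The 18 genes of the IL-1 and NF-kappaB response summed to 913 to 3895 CPM, lowest in Nlrp3-/- replicate 3 and highest in wild-type replicate 2. In the other mesenchymal cells this list summed to 2170 to 6102 CPM, and in Nlrp3-/- replicate 1 it was at 3041 CPM in chondrocyte-like cells against 2883 CPM in those. Against those cells 15 of the 18 genes had a median ratio under 1, and 6 were lower in each library. Cxcl5, Ccl2 and Saa3, targets of IL-1, had median ratios of 0.0989, 0.198 and 0.0585, and Il6 of 0.170. Their highest ratios in a library were 0.909, 0.558, 4.71 and 0.465, so Saa3 was not lower in each library. The other 3 of the 18 genes had a median ratio above 1. Ptgs2, the inducible cyclooxygenase, was at 97.5 to 283 CPM with a median ratio of 2.09, and Lcn2, lipocalin 2, at 22.8 to 643 CPM with 1.63. Their ratios ran from 0.907 to 7.02 and from 0.622 to 6.25, so neither was higher in each library. The paper used Lcn2 as a marker of neutrophils. In ambient RNA the 18 genes summed to 4562 to 8346 CPM, and the part of ambient RNA in the levels of the cells was not tested. Il6 was at 0 to 45.7 CPM. Il1b, the cytokine that the inflammasome releases, was at 25.3, 154 and 13.7 CPM in the wild-type libraries and at 189, 4.68 and 49.7 CPM in the Nlrp3-/- libraries. The groups overlapped, and its ratio to the other mesenchymal cells ran from 0.513 to 4.30. Inflammasome genes other than Il1b were at 57.6 CPM or less in each library. With Il1b, the 7 inflammasome genes summed to 27.2 to 263 CPM, against 424 to 1157 CPM in ambient RNA. Pycard was at 6.31 to 31.2 CPM, Casp1 at 0 to 9.75 CPM and P2rx7 at 0 to 15.6 CPM. Nlrp3 itself gave 12 UMIs in the wild-type cells and 0 in the Nlrp3-/- cells, at least 14.1-fold lower with a floor of 3 counts for the group. Nlrp3-/- replicate 2 held most of the UMIs of its group, 11533753 against 512971 and 442507 in Nlrp3-/- replicates 1 and 3. The absence of Nlrp3 therefore rests mainly on that library and says little of the titles of replicates 1 and 3. The gene was too low in these cells for a test.

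Wild-type replicate 2 stood apart. Of 130 listed genes that reached 100 CPM in some library, 10 were at least 3-fold above and 17 at least 3-fold below the range of the other libraries. No other library had more than 4 such genes. Cytl1, a cytokine-like protein of chondrocytes, was at 4154 CPM there and at 19.1 to 271 CPM elsewhere, and it was detected in 11 of 16 cells against 0.805% to 14.3% of the cells of other libraries. Prg4 was at 5286 CPM against 400 to 1903 CPM, found in 9 of 16 cells. Clu was at 1449 CPM against 33.7 to 58.7 CPM, Cilp at 3147 CPM against 56.1 to 115 CPM, and Mgp, an inhibitor of calcification, at 21606 CPM against 1817 to 6375 CPM. Dcn, the decorin of fibrous matrix, was at 14670 CPM against 1914 to 3911 CPM. Most of the Prg4 lay in cells under 1% Col2a1, which were 9 of the 16: Prg4 was at 7673 CPM in these and at 1471 CPM in the other 7. Among cells under 1% Col2a1, wild-type replicate 1 had more, at 14038 CPM. Cytl1 and Clu were highest in wild-type replicate 2 both among cells under 1% Col2a1 and among the rest, and Col1a1 was lowest there in both. The 16 cells together also had the highest sum of 9 dissociation response genes, 11005 CPM against 1367 to 4540 CPM, and whether that moved with their profile was not tested. With 104228 UMIs in all they were the smallest set.

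Nlrp3-/- replicate 2 differed in other genes. Bnip3, a target of hypoxia signalling, was at 391 CPM there and at 67.2 to 136 CPM elsewhere. Slc2a1, the glucose transporter, was at 95.7 CPM against 32.1 to 48.0 CPM, and Pgk1 of glycolysis at 1061 CPM against 310 to 649 CPM. The 10 genes of hypoxia and glycolysis summed to 4552 CPM there and to 2170 to 2818 CPM in the rest. This library was also highest for the list in other material: it had 1325 CPM against 1151 to 1180 CPM in tenocyte-lineage cells, 1620 CPM against 1280 to 1437 CPM in the other mesenchymal cells and 1924 CPM against 1190 to 1415 CPM in ambient RNA. Among chondrocyte-like cells with at least 1% Col2a1 it was again highest, at 5024 CPM against 2154 to 3022 CPM. Other sets went otherwise. Among chondrocyte-like cells under 1% Col2a1 this library had 2145 CPM, within the 1548 to 2355 CPM of the rest. In the few osteoblast-lineage cells it was lowest, at 461 CPM against 637 to 2907 CPM. A higher level was thus also measured outside chondrocyte-like cells, though not in each set. Whether the size of the difference varied between these sets was not tested. The rule genes summed to 6605 CPM in the ambient RNA of this library, against 79.3 to 1261 CPM elsewhere. The part of ambient RNA in the other sets was not tested.

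**Figure D5:**
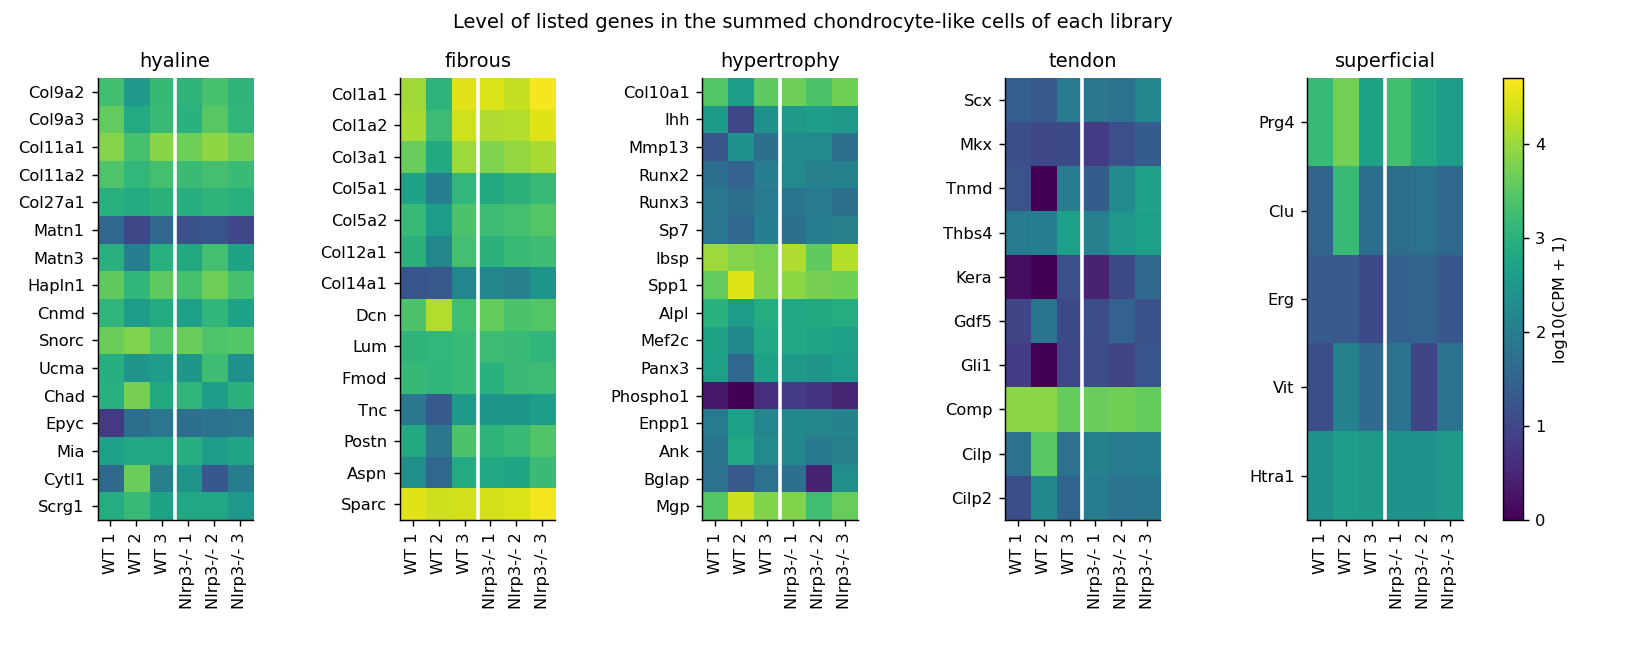
Levels are shown as log10(CPM + 1) for 5 lists of genes (rows) in the summed chondrocyte-like cells of 6 libraries (columns), with a white line between wild type (WT) and Nlrp3-/-. Type I collagen genes are low and Dcn, Mgp, Clu, Cilp and Cytl1 high in wild-type replicate 2, and the other libraries resemble each other more.

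The last comparison asked which genes differed between the genotypes within chondrocyte-like cells. UMI counts were added up by library, the quasi-likelihood test of edgeR was run on 7684 genes, and 6 passed at an adjusted p under 0.05 (0.0781% of the genes tested). Of these, 3 were higher (0.039%) and 3 lower (0.039%) in Nlrp3-/- cells. At an unadjusted p under 0.05 there were 205 genes (2.67%), and groups without overlap were found for 716 genes (9.32%). In the other mesenchymal cells, with many more cells per library, 15 of 14428 genes passed (0.104%). Both counts share the same libraries.

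Of the 6 genes, 3 mark sex. Xist, the RNA that coats the silenced X in female cells (chromosome X, 103460366 to 103483254 of GRCm38), was at 881, 563 and 728 CPM in the Nlrp3-/- libraries and at 0 in the wild-type libraries, at least 687-fold higher with the same floor. Ddx3y and Eif2s3y, on chromosome Y, were at 70.0 to 89.4 and 20.5 to 48.0 CPM in the wild-type libraries and gave no UMI in Nlrp3-/- cells, which makes them at least 328-fold and 122-fold lower. The call of Eif2s3y was lost without wild-type replicate 1, wild-type replicate 3 or Nlrp3-/- replicate 2 (edgeR adjusted p 0.187, 0.335 and 0.269). It was also lost with the replicate number as a block (edgeR adjusted p 0.234). The wild-type material was thus male and the Nlrp3-/- material female, and an effect of genotype and one of sex cannot be told apart in any of these comparisons.

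Igf2, the fetal insulin-like growth factor (chromosome 7, 142650766 to 142666816, protein-coding), was the autosomal gene of known function that passed upwards. It was at 4.21, 0 and 3.26 CPM in wild-type replicates 1 to 3, from 13 UMIs, and at 91.6, 61.0 and 136 CPM in Nlrp3-/- replicates 1 to 3, from 811 UMIs. The groups did not overlap, and the log2 fold change was 4.63 with a standard error of 0.49 (edgeR adjusted p 0.00483). Igf2 met the filter on low counts through the Nlrp3-/- libraries alone, so the lack of overlap is no separate support for the call. The call was lost without wild-type replicate 1 (edgeR adjusted p 0.129) and without wild-type replicate 3 (edgeR adjusted p 0.118), at log2 fold changes of 4.97 and 4.49. In cells with at least 1% Col2a1, Igf2 did not pass the filter on low counts and was at 4.06, 0 and 0 CPM against 106, 55.0 and 0 CPM, so there the groups overlapped.

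Igf2 UMIs were found in a minority of cells. Igf2 was detected in 5 of 77, 0 of 16 and 3 of 69 wild-type cells and in 14 of 121, 144 of 497 and 5 of 35 Nlrp3-/- cells. In Nlrp3-/- replicate 3, 58 of its 60 UMIs came from 3 cells, and its 5 positive cells all had under 1% Col2a1. These counts were not set to equal depth, and the cells of Nlrp3-/- replicate 1 were the shallowest, so the libraries are not compared by them.

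Other cells of the same libraries gave mixed values. In the other mesenchymal cells Igf2 was at 66.1, 26.7 and 22.6 CPM in wild-type replicates 1 to 3 and at 79.4, 41.1 and 74.7 CPM in Nlrp3-/- replicates 1 to 3. These groups overlapped, and the log2 fold change of 0.68 did not pass (edgeR adjusted p 0.474). An edgeR fit of both sets of cells with the library as a block, added after the data had been seen, tested the difference between these 2 effects. Igf2 was the 1 gene of 14158 that passed (0.00706%), with the change 4.11 higher on the log2 scale in chondrocyte-like cells (edgeR adjusted p 0.00103). In tenocyte-lineage cells, which can be among the other mesenchymal cells, Igf2 was at 37.3, 25.1 and 20.9 CPM in the wild-type libraries and at 128, 57.3 and 100.3 CPM in the Nlrp3-/- libraries. There the groups did not overlap either, and the change of 1.75 ± 0.31 (log2, standard error) did not pass (edgeR adjusted p 0.133). Against tenocyte-lineage cells the change in chondrocyte-like cells was 3.00 higher on the log2 scale, which did not pass (edgeR adjusted p 0.106). A higher Igf2 level in Nlrp3-/- libraries is therefore not shown to be particular to chondrocyte-like cells. H19, its imprinted neighbour gene, named after its values were seen, was at 341, 192 and 472 CPM against 846, 988 and 601 CPM, and its log2 fold change of 1.22 did not pass either (edgeR adjusted p 1.00).

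Tpm3-rs7, a retrogene of tropomyosin 3 (chromosome 14, 113314608 to 113316754), was at 67.3, 48.0 and 61.3 CPM in the wild-type libraries and at 0, 0.434 and 0 CPM in the Nlrp3-/- libraries (log2 fold change -7.19, standard error 0.47, edgeR adjusted p 0.000226). Its parent gene Tpm3, which can share reads with it, went the other way, at 46.8, 48.0 and 52.8 CPM against 144, 128 and 113 CPM. Summed, the pair was at 114, 95.9 and 114 CPM against 144, 129 and 113 CPM. The split between parent and copy is therefore uncertain, and the other mesenchymal cells showed the same fall of the retrogene, by 6.07 on the log2 scale. Gm8797, a predicted gene, was at 4.21 to 9.59 CPM against 27.3 to 40.1 CPM (log2 fold change 2.81, standard error 0.40, edgeR adjusted p 0.0436). Tpm3-rs7 met the filter on low counts through the wild-type libraries alone, and Gm8797 through the Nlrp3-/- libraries alone. Gm8797 has a further limit. It is named although its symbol is that of a predicted gene, and its call was lost under 10 of 16 alternatives, among them without wild-type replicate 1 (edgeR adjusted p 0.776), without wild-type replicate 3 (edgeR adjusted p 0.295) and without each of Nlrp3-/- replicates 1, 2 and 3 (edgeR adjusted p 0.0583, 0.421 and 0.128).

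Of the 16 hyaline, 14 fibrous, 16 hypertrophic and 20 growth plate signalling genes, 16, 14, 15 and 17 were tested, and none passed in edgeR. Unadjusted p-values under 0.05 numbered 2, 0, 1 and 1 in these lists, and DESeq2 called 0, 0, 0 and 1 of them. The 18 genes of the IL-1 and NF-kappaB response, of which 15 were tested, and the 10 of hypoxia and glycolysis also gave no call in edgeR or DESeq2, with 1 gene each at an unadjusted p under 0.05 (Ptges and Bnip3). Over the lists that hold neither rule genes nor sex-linked genes, 162 of 200 genes passed the filter on low counts, and 12 of these had an unadjusted p under 0.05, where 2.67% of the genes tested did. Groups without overlap were found for 7 of the 162, where 9.32% of the genes tested had them. The median log2 fold change of the fibrous list was 0.67, that of the hyaline list -0.09, and that of the genes tested 0.01. No gene of either matrix list is therefore called different between the genotypes.

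Ccn2, connective tissue growth factor, which chondrocytes make under mechanical load and TGF-beta, was the call of DESeq2. It was at 1270, 1737 and 976 CPM in wild-type replicates 1 to 3 and at 444, 518 and 362 CPM in Nlrp3-/- replicates 1 to 3. The groups did not overlap, and the log2 fold change was -1.61 with a standard error of 0.32 (edgeR adjusted p 0.394, DESeq2 adjusted p 0.0148). In the other mesenchymal cells it was -1.13 (edgeR adjusted p 0.423). Runx2, a transcription factor of hypertrophy and bone, was at 52.1, 28.8 and 97.2 CPM against 170, 108 and 115 CPM, with a log2 fold change of 0.94 and a standard error of 0.36 (edgeR adjusted p 1.00). Col1a1 and Col10a1 had log2 fold changes of 1.08 ± 0.86 and 0.79 ± 0.63 (standard error) that did not pass (edgeR adjusted p 1.00 each), and wild-type replicate 2 was the lowest library for both.

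Lyz2, a macrophage and neutrophil lysozyme, was at 98.4, 134 and 76.3 CPM against 784, 145 and 495 CPM (log2 fold change 2.23, standard error 0.55, edgeR adjusted p 0.908, DESeq2 adjusted p 0.0231). Lyz2 is itself 1 of the 6 macrophage markers and made up most of their sum in Nlrp3-/- replicates 1 to 3. Without the limits on Ptprc and Cdh5 the cells numbered 1030, and the edgeR test then called 5 genes. Igf2 was among them, its log2 fold change being 4.25 (edgeR adjusted p 0.00292). That alternative was added after the data had been seen.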

How the data were processed

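Single-cell RNA was measured in 6 libraries of injured and repaired mouse enthesis at 7 dpi. The authors deposited raw matrices of UMI counts per gene and barcode, before cell calling, with 32285 genes each. The matrix headers name Cell Ranger 4, whereas the submitters' processing notes name Cell Ranger 2.1.1 and mm10. Gene positions are those of GENCODE vM21 for GRCm38, the same build. Totals per library and depth per cell stand in the report, and intervals and floors of 3 counts cover counting error only.

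Chondrocyte-like cells were selected on measured UMIs by the rule given in the report. The cells, gene lists and tests were chosen with earlier results of these data known. The text names genes of the lists, plus up to 10 genes a direction that passed, averaged 20 CPM or more, did not overlap and had no predicted-gene symbol. Gm8797, Tpm3, H19, Susd5, Smpd3 and Trpv4 fall outside this rule and were named after their values were seen. Counts were summed per library and tested with edgeR 4.0.16 in R 4.3.3 (TMM, filterByExpr, Benjamini-Hochberg, threshold 0.05), and shares with exact permutation tests over the libraries (scipy). DESeq2 1.42.0, other limits of the rule, the replicate block and each library left out were alternatives. Standard errors given with edgeR log2 fold changes were derived as the absolute change divided by the square root of the quasi-likelihood F statistic. The edgeR script was tested on simulated data. Thinning drew 1000 UMIs per cell without replacement. Osteoblast-lineage cells, 26 in all, were too few for a comparison, and no sequences are printed.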

Additional observations from a re-analysis of the deposited data

Results flagged for a closer look

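Igf2 was singled out because its difference between the genotypes was not the same in the 2 sets of cells of the same libraries. The log2 change from wild type to Nlrp3-/- was 4.11 higher in chondrocyte-like cells than in the other mesenchymal cells (edgeR adjusted p 0.00103, library as a block). In chondrocyte-like cells Igf2 was higher in 3 of 3 Nlrp3-/- libraries than in any wild-type library, whereas in the other mesenchymal cells the libraries overlapped. In tenocyte-lineage cells the libraries did not overlap either, at 20.9 to 37.3 CPM against 57.3 to 128 CPM, and the change in chondrocyte-like cells was 3.00 higher than theirs, which did not pass (edgeR adjusted p 0.106). Over 10 fits of the difference from the other mesenchymal cells, with 3 other limits on Col2a1 and each library left out in turn, the value ranged from 3.62 to 4.52 and the adjusted p from 1.18e-08 to 0.0273. The fit was chosen after the data had been seen. The wild-type value rests on 13 UMIs. In the test of chondrocyte-like cells by themselves, Igf2 met the filter on low counts through the Nlrp3-/- libraries alone. In Nlrp3-/- replicate 3, the value rests on 3 cells. In cells with at least 1% Col2a1 the groups overlapped. Igf2 was there at 4.06, 0 and 0 CPM in the wild-type libraries and at 106, 55.0 and 0 CPM in the Nlrp3-/- libraries. The Igf2 level of ambient RNA was 7.93 to 16.4 CPM in the wild-type libraries and 21.0 to 33.0 CPM in the Nlrp3-/- libraries, and its part in the result was not tested.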

How the results depend on the processing

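The difference in the share of chondrocyte-like cells, 1.83 on the log2 scale, kept its direction under the 9 alternatives on depth, Col2a1, denominator and exclusions, with a test that 3 libraries a group cannot take under 0.1. Leaving out 1 library each gave -0.21 to 2.34; the -0.21 came without Nlrp3-/- replicate 2. The fibrous share kept its direction under each alternative, from 5.56 to 14.7 percentage points with 1 library left out, under the same limit; the 5.56 came without wild-type replicate 2 and the 14.7 without wild-type replicate 3. The count of 6 genes became 41 with no filter on low counts, where 18327 genes were tested, and 12 with DESeq2 (the cause was not tested). With 1 library left out it was 3 to 7: 3 without wild-type replicate 1 or without wild-type replicate 3. Tpm3-rs7, Xist and Ddx3y passed under each of 17 fits, Igf2 under 14 of 16, Eif2s3y under 13 of 17, Gm8797 under 7 of 17 and Ccn2 under 1 of 17.

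The labels do not say that replicate numbers mark a shared animal or batch, and same-numbered libraries did not deviate together (correlations of -0.22, -0.19 and 0.08; 2 of 6 libraries correlated best with their own number). With the replicate block the share difference was 1.26 (exact p = 1.0 within numbers, where 0.25 is the smallest p), the fibrous difference 9.69 points (exact p = 0.25) and the count 5 genes. Using each library with any member changed nothing, since each held at least 10. The limits on 1% Col2a1 and on Ptprc and Cdh5, and Col2a1, Acan and Col9a1 as hyaline genes, were added after the data had been seen. Counting error is largest for wild-type replicate 2, with 16 cells, and depth limits Nlrp3-/- replicate 1.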
